A study of Mus musculus with 12 samples.

Results

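The comparison described here adds the CSF3R T618I receptor to mouse HoxB8 cells that already carry a truncated Asxl1. It sets the 3 libraries of the group Asxl1-MT2/T618I against the 3 libraries of Asxl1-MT2/Empty, 6 of the 12 libraries in the study, across all genes. HoxB8 cells are bone marrow cells immortalised with an estrogen-controlled Hoxb8; all of them grew with medium conditioned with stem cell factor and with estrogen, and estrogen was withdrawn for 24 h before RNA was extracted, in all groups alike. Every population carried a pair of vectors. In the 6 libraries compared, the pMIG vector held Asxl1-MT2, called a truncation in the study's design text, and the pMICH vector either was empty or held CSF3R T618I. The remaining libraries, Empty/T618I and Empty/Empty with 3 each, carried an empty pMIG and were used to ask whether the T618I effect differed between cells with and without Asxl1-MT2. One library titled Empty/Empty has T618I in its genotype label and was kept in the group of its title. It enters the shared estimate of the spread, the Empty/Empty levels, the T618I effects and calls in empty-vector cells, and the tests of that difference. The constructs are overexpressed from vectors in 1 immortalised line, and the labels give neither the number of separate transductions nor of cultures, so the p-values reflect only how far the libraries of a group lay apart, and that spread could be technical.

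CSF3R binds granulocyte colony-stimulating factor, the main cytokine of neutrophil production. It signals through JAK kinases and STAT factors, and the T618I change in its extracellular part, near the membrane, makes it signal without ligand and is known from chronic neutrophilic leukaemia. ASXL1 binds the deubiquitinase BAP1 and is often truncated in myeloid neoplasms. Developing neutrophils make their granules in order: primary granules (myeloperoxidase, elastase) in promyelocytes, secondary granules (lactoferrin, lipocalin) in myelocytes, and tertiary granules and the receptors of the mature cell (gelatinase, chemokine and formyl peptide receptors) last.

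Total counts were 9956363 to 10004177 in the libraries without T618I and 10104339 to 10252291 in those with it, so depth was nearly the same. Levels are given as CPM, a gene's counts scaled by the library total multiplied by the library's TMM factor, edgeR's scaling factor between libraries. They are values of libraries A, B and C in that order or mean ± SD of the 3 libraries. The TMM factors were 0.919 to 0.959 in Asxl1-MT2/T618I and 1.01 in Asxl1-MT2/Empty. A smaller factor gives a higher CPM, so the CPM levels also depend on the TMM scaling. CPM is not divided by gene length, so levels are compared between libraries. Where genes are ranked by CPM or by a gain in CPM, the order does not rank numbers of transcripts. Fold changes are log2 values ± standard error from edgeR's quasi-likelihood test, and a gene is said to rise or fall, or is called, where its Benjamini-Hochberg adjusted p over all 11578 genes tested is under 0.05. Mpo, a primary granule gene, had the highest CPM of all genes in the control libraries, at 28439 to 31426 CPM. Some defining genes of B and T cells (Pax5, Cd3e), erythroid cells (Hbb-bs) and endothelium (Cdh5) had no count in any of the 6 libraries. Other genes used as markers of these lineages did have counts, such as Igll1 and Cd79b of B cells, Gata1 and Pecam1. In such bulk RNA, fewer cells of a type and less RNA per cell cannot be told apart.

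The genes on the vectors were examined first. Asxl1 was at 1833, 1678 and 1723 CPM without T618I and at 1086, 1009 and 919 CPM with it, against 119 ± 4.53 CPM in Empty/Empty. The vector-borne Asxl1 RNA was thus high in both groups compared, but lower where T618I had been added (log2 −0.80 ± 0.09, adjusted p = 9.55e-07), so the 2 groups do not carry an equal level of Asxl1. Csf3r was at 320, 307 and 253 CPM without T618I and at 1688, 1334 and 967 CPM with it (log2 2.18 ± 0.17, adjusted p = 1.4e-08). With an empty pMIG, Csf3r was at 431 ± 39.3 CPM with T618I against 298 ± 57.6 CPM without it. The difference between the 2 Csf3r effects was called (log2 1.65 ± 0.24, adjusted p = 0.000134). Csf3r is itself a gene of maturing neutrophils, and whether reads of the CSF3R vector count toward mouse Csf3r is not known here, so its level does not measure the vector. Hoxb8 fell from 720 ± 65 to 571 ± 13.5 CPM (log2 −0.33 ± 0.10, adjusted p = 0.0112), a call that was lost when library B of Asxl1-MT2/Empty was left out (adjusted p = 0.0543).

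T618I changed 5761 of the 11578 genes tested in Asxl1-MT2 cells, which is 49.8%: 3118 rose (26.9%) and 2643 fell (22.8%). These shares are the background against which the counts within gene groups are read. The groups and their members were chosen with earlier results of these data known. A count beyond these shares is therefore a description and not a test. Of the genes changed at least 2-fold (log2 of at least 1), 1341 rose (11.6%) and 388 fell (3.35%), together 14.9%. The 3 T618I libraries lay all above the 3 control libraries for 30.9% of tested genes and all below for 29.1%. The median log2 fold change over all tested genes was −0.02. Scaling by library totals alone, without TMM factors, shifted that median to −0.12 and turned the split to 2585 higher and 3805 lower, so small changes below are relative to the TMM scaling. Gene groups are described by how many tested members were called and by the median log2 fold change of the tested members.

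**Figure D1:**
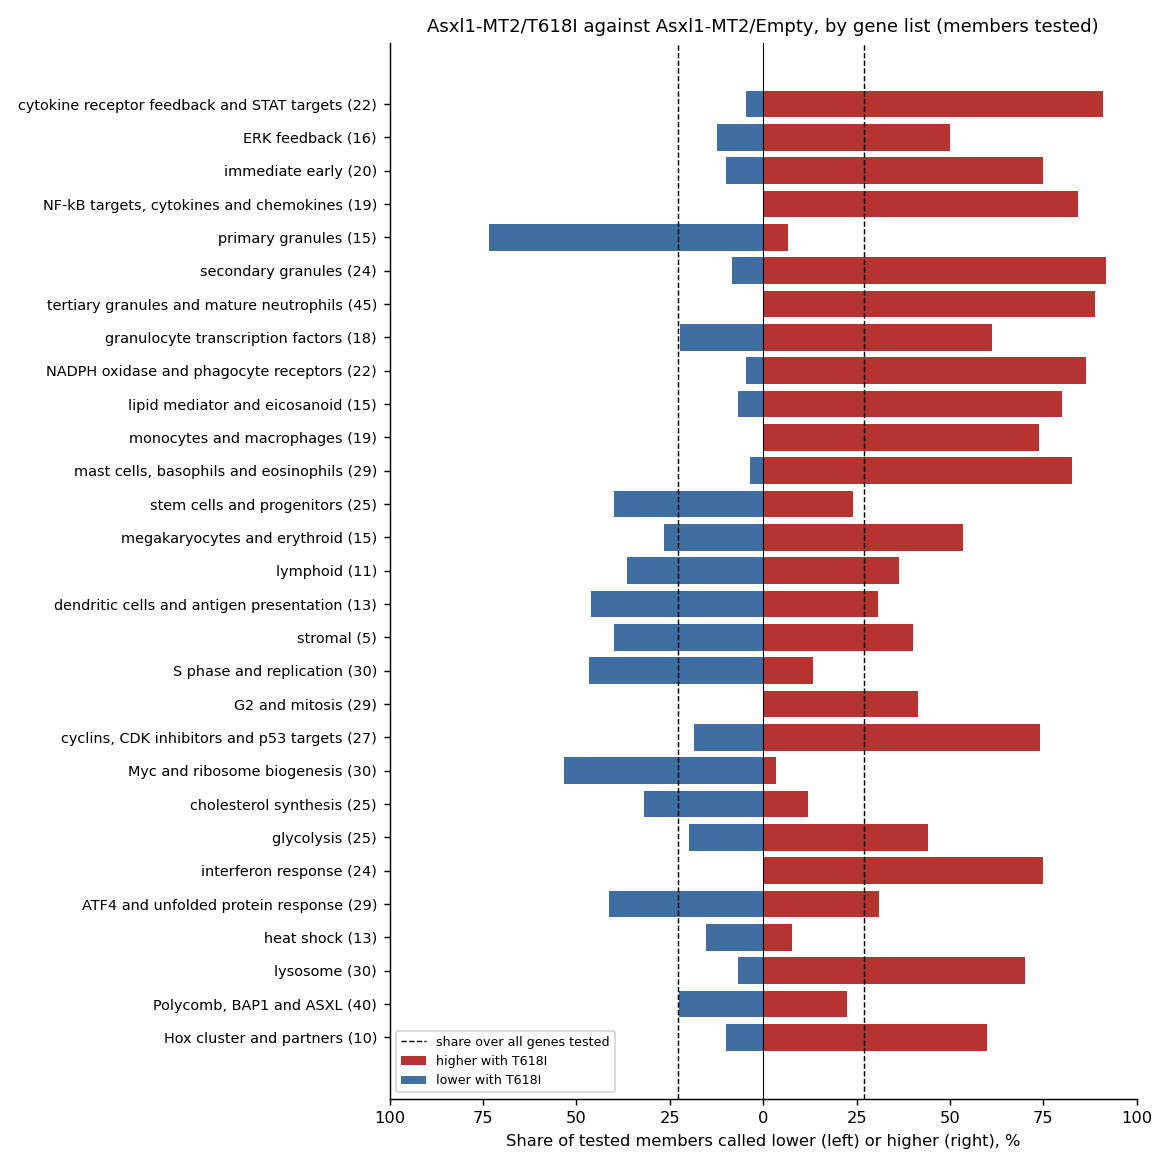
Share of tested members of each gene list called lower (blue, left) or higher (red, right) in Asxl1-MT2/T618I against Asxl1-MT2/Empty, with the number tested in parentheses and dashed lines at the shares over all genes (22.8% and 26.9%). Secondary and tertiary granule, STAT target and mast cell lists reach far to the right, and primary granules, Myc and S phase lists reach to the left. The lists were chosen with earlier results of these data known.

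Genes that cytokine receptors switch on through STAT factors rose almost as a whole. Of 22 tested, 20 rose and 1 fell (Socs2, a call lost without library A or library B of either group compared), with a median log2 fold change of 2.04. Socs3, the inhibitor that shuts off signalling by this receptor family, was at 10.7, 10.4 and 11.1 CPM without T618I and at 264, 228 and 196 CPM with it, so that every T618I library stood far above every control library (log2 4.42 ± 0.12, adjusted p = 1.14e-13). Il4ra, a chain of the interleukin-4 receptor, rose from 58.4 ± 4.65 to 670 ± 105 CPM, Socs1 from 0.298 ± 0.172 to 6.22 ± 2.17 CPM, and Gadd45g from 0.198 ± 0.171 to 10.4 ± 3 CPM. Bcl6, a transcriptional repressor, rose from 17.1 ± 0.615 to 123 ± 35.6 CPM. Cish, a feedback inhibitor of the same family, went from 5.61 ± 0.457 to 29.1 ± 3.4 CPM. Pim3, a kinase, was not called (log2 −0.17 ± 0.12, adjusted p = 0.253). T618I raised 19 of these 22 genes in empty-vector cells too (17.6% of all tested genes rose and 15.9% fell there), and the difference between the 2 effects was called for 11, higher with Asxl1-MT2 for 10 and lower for Pim3, whose call was lost without any 1 of 6 libraries (adjusted p = 0.0534 to 0.083). Among all tested genes that difference was called higher for 14.1% and lower for 5.51%. For Cish and Osm the difference was not called (0.04 ± 0.20 and −0.13 ± 0.20), whereas Socs3 and Bcl6 rose more with Asxl1-MT2 (differences of 0.72 ± 0.17 and 1.98 ± 0.24, both called).

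The 250 bases before the Socs3 start site (chr11:117969367-117969616, minus strand, RefSeq GRCm38.p6) are shown because the gene led these STAT targets by p-value. The capitals mark the match to the STAT motif TTCNNNGAA, searched on both strands; its first base lies at −154.
Socs3: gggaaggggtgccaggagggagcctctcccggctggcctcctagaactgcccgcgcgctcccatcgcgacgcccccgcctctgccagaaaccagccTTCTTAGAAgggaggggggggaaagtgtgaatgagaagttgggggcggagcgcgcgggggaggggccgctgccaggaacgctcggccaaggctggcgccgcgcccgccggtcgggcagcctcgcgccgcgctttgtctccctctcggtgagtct
Such a match was present in 7.02% of the 32851 RefSeq promoter windows of this length and in 3 of the 22 windows found for genes of this list, 1 of Socs3 and 2 of Bcl6; some genes have several windows and some none.

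The shared beta chains of the interleukin-3, interleukin-5 and GM-CSF receptors were among the clearest risers. Csf2rb2 was at 54.2, 51.5 and 46.8 CPM without T618I and at 1338, 1339 and 1301 CPM with it, a narrow spread around a change of 4.71 ± 0.12 on the log2 scale (adjusted p = 1.14e-13). Csf2rb went from 546 ± 17.1 to 2627 ± 137 CPM. The T618I effects in empty-vector cells were 4.97 ± 0.13 and 2.44 ± 0.08, and neither difference was called (−0.26 ± 0.16 and −0.17 ± 0.11). The 2 genes are near-identical, so reads may be shared between them.

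Immediate early genes, the transcription factors that growth signals switch on first, rose in 15 of 20 tested cases and fell in 2 (Nr4a2 and Myc), with a median of 2.52. Klf2, a zinc finger factor, was at 1.78, 1.78 and 0.898 CPM without T618I and at 125, 106 and 84 CPM with it (log2 6.13 ± 0.25, adjusted p = 4.16e-12). Egr1 rose from 1.85 ± 0.14 to 26.8 ± 4.07 CPM and Btg2, a growth inhibitor, from 1.75 ± 0.494 to 26.9 ± 5.91 CPM. Egr3 rose from 1 count over the 3 control libraries to 85 counts, a ratio of 89.7 (95% counting interval 15.7 to 3580). Fosl1 was not called (log2 0.28 ± 0.17). The interaction, that is the difference between the T618I effects in the 2 backgrounds, was called higher for 11 of the 20 and lower for Myc. Klf2 and Btg2 rose more with Asxl1-MT2 (differences of 3.60 ± 0.43 and 2.37 ± 0.37), while for Egr1 the difference was −0.31 ± 0.47 and not called.

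Feedback genes of the ERK kinase pathway were mixed. Of 16, 8 rose and 2 fell (Spry1 and the phosphatase Dusp2), with a median of 0.71. Ier3 rose from 8.72 ± 0.796 to 66.7 ± 12.1 CPM, Phlda1 from 0.859 ± 0.23 to 5.59 ± 1.2 CPM and Dusp1, a phosphatase of these kinases, from 3.2 ± 0.128 to 10.8 ± 0.0742 CPM. Spry1, an inhibitor of receptor tyrosine kinase signalling, fell from 2.21 ± 0.644 to 0.558 ± 0.161 CPM (log2 −1.96 ± 0.41). Spred1 was not called (0.02 ± 0.12).

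NF-kB targets, cytokines and chemokines rose in 16 of 19 tested cases and none fell, with a median of 2.58. Il1b, the inflammatory cytokine interleukin-1 beta, had 3 counts over the control libraries and 729 with T618I, a ratio of 256 (95% counting interval 87.4 to 1250), and stood at 36.1, 24.9 and 15.6 CPM in the T618I libraries. Cxcl2, a neutrophil-attracting chemokine, had no count without T618I and 276 with it, at least 97.1-fold higher against a floor of 3 counts over the group. Ccl2 likewise had 0 and 81 counts, at least 28.5-fold higher. Il6 rose from 0.23 ± 0.317 to 6.43 ± 1.33 CPM. Nfkbie, an inhibitor of NF-kB, was not called (log2 0.19 ± 0.19). The interaction was called higher for 7 of the 19 and lower for none. That of Il1b (4.67 ± 1.20) was lost without library A of Empty/Empty (adjusted p = 0.0943) and by limma voom (0.0851).

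Neutrophil primary granule genes fell. Of 15, 11 fell and 1 rose, with a median of −0.69. Mpo, myeloperoxidase, was at 31426, 30716 and 28439 CPM without T618I and at 9136, 10484 and 12605 CPM with it, so the groups did not overlap (log2 −1.49 ± 0.12, adjusted p = 2.1e-08). The serine proteases moved the same way: Ctsg, cathepsin G, fell from 3813 ± 236 to 1808 ± 130 CPM, Prtn3, proteinase 3, from 3262 ± 429 to 1761 ± 177 CPM and Elane, neutrophil elastase, from 1641 ± 96.7 to 910 ± 163 CPM. Calr, a calcium-binding chaperone that assists myeloperoxidase folding, fell from 6793 ± 563 to 3610 ± 508 CPM, and Nkg7, a granule membrane protein, from 182 ± 15.3 to 50.9 ± 9.36 CPM. The exception was Ctsc, the protease that activates the granule proteases, which rose from 96.7 ± 16.4 to 230 ± 23.5 CPM. Serpinb1a, their inhibitor, was not called (log2 −0.17 ± 0.07, adjusted p = 0.0592), although it was by DESeq2 (adjusted p = 0.0223), limma voom (0.0476), the letter block (0.047) and library totals alone (0.00494), and without library C of Asxl1-MT2/Empty (0.0392). In empty-vector cells T618I lowered 12 and raised 1 of these genes, and the difference was not called for Mpo (−0.18 ± 0.17), Ctsg (−0.25 ± 0.14) or Prtn3 (−0.22 ± 0.15). It was called higher with Asxl1-MT2 for Ctsc (0.49 ± 0.15), Clec12a (0.46 ± 0.13) and Igsf6 (0.57 ± 0.11) and lower for Calr (−0.42 ± 0.14), which fell in both backgrounds. The calls of Ctsc, Clec12a and Calr were each lost in several settings that leave out 1 library (adjusted p up to 0.0919, 0.0672 and 0.1 in turn).

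Secondary granule genes rose in 22 of 24 tested cases and fell in 2, with a median of 2.58. Mmp8, neutrophil collagenase, went from 2.77, 1.48 and 2.3 CPM to 2536, 1900 and 1323 CPM (log2 9.77 ± 0.29, adjusted p = 2.72e-13). All 3 T618I libraries lay far above every other library in the study, with library A highest and library C lowest. Ltf, lactoferrin, was at 47.5, 29.5 and 30.1 CPM without T618I and at 1050, 949 and 1007 CPM with it (log2 4.81 ± 0.32, adjusted p = 1.34e-09). Lcn2, the iron-scavenging lipocalin of these granules, rose from 415, 329 and 298 CPM to 3990, 3423 and 2967 CPM (log2 3.32 ± 0.15). Ngp, the neutrophilic granule protein, was at 1204, 686 and 768 CPM without T618I and at 3554, 3860 and 3981 CPM with it (log2 2.10 ± 0.23). Here library A was the lowest of the T618I libraries, so the order of the libraries was not the same for all genes of the group. Ceacam10 had 3 counts without T618I and 1502 with it, a ratio of 528 (95% counting interval 180 to 2570), and the cystatins Stfa2 and Stfa3 rose from 5.58 ± 1.17 to 836 ± 227 CPM and from 4.16 ± 1.42 to 324 ± 108 CPM. Camp, the cathelicidin, rose less, from 15.2 ± 4.19 to 28.1 ± 5.27 CPM, and its call was lost without library C of Asxl1-MT2/Empty (adjusted p = 0.0518). The 2 members that fell were Fcnb, ficolin B (258 ± 53.7 to 66.6 ± 19.9 CPM), and Tcn2, transcobalamin (365 ± 39 to 261 ± 8.88 CPM). Stfa and Ceacam genes have near-identical relatives, so their reads may be split.

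The promoters of Mmp8 (chr9:7558179-7558428, plus strand), Ltf (chr9:111019042-111019291, plus strand) and Lcn2 (chr2:32387740-32387989, minus strand) are shown as those of genes that rose and held a match. Each is the 250 bases before the RefSeq start site in GRCm38.p6, and capitals mark matches to TTGCNNAA, a degenerate form of the motif of C/EBP factors, searched on both strands.
Mmp8: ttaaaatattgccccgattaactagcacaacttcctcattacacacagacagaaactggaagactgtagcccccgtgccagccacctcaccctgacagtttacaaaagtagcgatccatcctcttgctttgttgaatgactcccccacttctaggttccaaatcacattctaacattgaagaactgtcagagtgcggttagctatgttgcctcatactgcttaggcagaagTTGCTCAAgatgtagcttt
Ltf: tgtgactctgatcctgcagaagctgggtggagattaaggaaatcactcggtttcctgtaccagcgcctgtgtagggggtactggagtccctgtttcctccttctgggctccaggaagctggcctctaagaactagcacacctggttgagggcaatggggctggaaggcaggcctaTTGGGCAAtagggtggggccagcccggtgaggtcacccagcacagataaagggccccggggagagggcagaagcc
Lcn2: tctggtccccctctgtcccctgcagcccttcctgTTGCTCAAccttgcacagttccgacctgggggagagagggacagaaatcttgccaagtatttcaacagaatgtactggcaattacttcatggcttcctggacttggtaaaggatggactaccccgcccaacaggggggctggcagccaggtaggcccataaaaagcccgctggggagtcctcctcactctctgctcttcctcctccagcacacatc
The matches begin at −19, −75 and −216, and 7 of the 21 windows found for this list held one (33.3%), against 9.56% of all 32851 windows and 7.81% of those of tested genes. The 3 promoters shown were picked among the matching ones, and a match describes the letters only. The window of Fcnb, which fell, held 2 matches, whereas those of Camp, Ceacam10, Stfa2 and Stfa3, which rose, held none.

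Most secondary granule genes had a called difference between the backgrounds. Without Asxl1-MT2, T618I raised 12 of the 24 genes and lowered 6, with a median of 0.73, and the interaction was called higher for 22 of the 24 and lower for none. Ltf was at 97.7 ± 26.4 CPM in Empty/T618I and 91.8 ± 44 CPM in Empty/Empty (log2 0.09 ± 0.28), and the difference between the effects was 4.72 ± 0.41 (adjusted p = 3.54e-06). Ngp was at 392 ± 101 CPM in Empty/T618I against 595 ± 211 CPM in Empty/Empty, not called, with a difference of 2.70 ± 0.32. Camp fell there, from 16.7 ± 6.22 to 4.07 ± 1.78 CPM, the opposite of its rise with Asxl1-MT2 (difference 2.91 ± 0.41). Mmp8 did rise in empty-vector cells, to 201 ± 25.1 CPM from 6.18 ± 2 CPM, but by 5.02 ± 0.25 and not 9.77 on the log2 scale (difference 4.75 ± 0.42). The summed level of the 24 tested and 4 untested members was 4441 to 5842 CPM in Asxl1-MT2/Empty and 17808 to 21429 CPM in Asxl1-MT2/T618I, against 5032 to 5870 CPM in Empty/T618I.

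**Figure D2:**
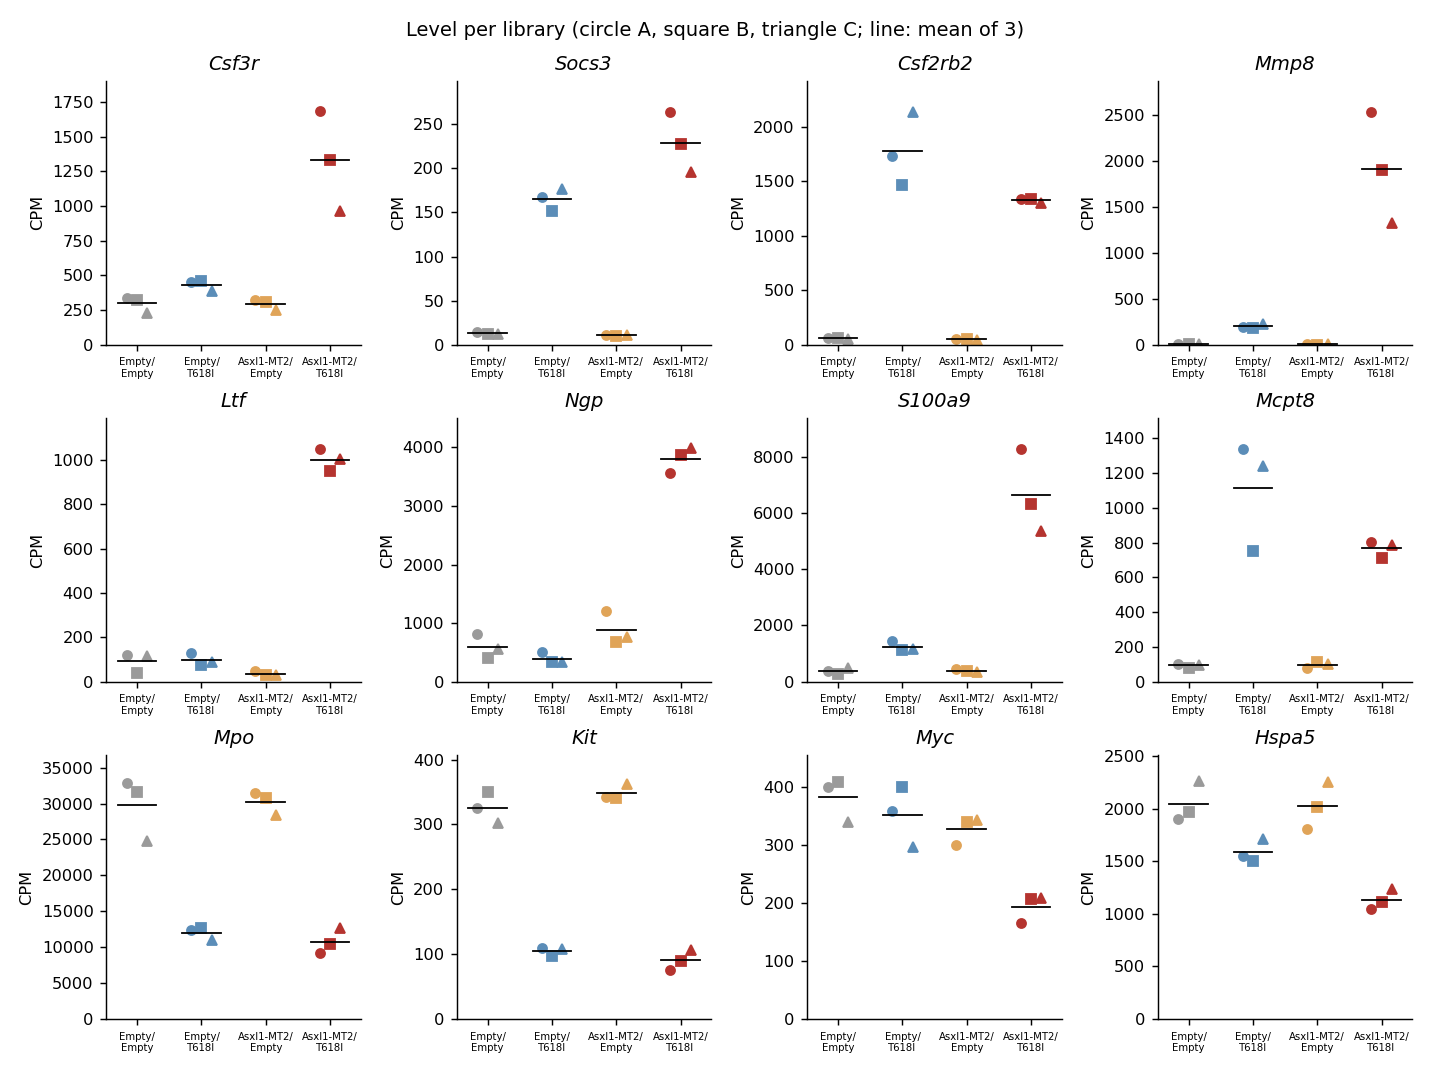
CPM of 12 genes in each of the 12 libraries (points, shape by library letter; lines, mean of 3), by group. Ltf and Ngp are highest in the 3 Asxl1-MT2/T618I libraries, Csf2rb2, Mcpt8, Mpo and Kit move with T618I in both backgrounds, and Myc is lowest in Asxl1-MT2/T618I.

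Tertiary granule and mature neutrophil genes rose in 40 of 45 tested cases, none fell, and the median was 2.36. S100a9 and S100a8, the 2 chains of calprotectin, had the largest gains in CPM among genes of at least 50 CPM in a group compared, symbols of predicted genes left out. S100a9 went from 450, 382 and 350 CPM to 8270, 6319 and 5358 CPM (log2 4.08 ± 0.21, adjusted p = 5.7e-11), and S100a8 from 419 ± 89.4 to 4772 ± 1159 CPM. Mmp9, gelatinase B, was at 1.68, 1.09 and 0.898 CPM without T618I and at 1015, 750 and 529 CPM with it (log2 9.27 ± 0.34). Library A was again highest and library C lowest. Fpr1, the formyl peptide receptor, had no count in the control libraries and 114, 88.9 and 67 CPM with T618I, at least 905-fold higher. Retnlg, a resistin-like secreted protein, rose from 0.529 ± 0.155 to 270 ± 78.3 CPM and Cxcr2, the receptor for neutrophil chemokines, from 19.8 ± 2.21 to 702 ± 178 CPM. Itgam, the integrin chain CD11b, rose from 322 ± 37.8 to 1064 ± 137 CPM. Lmnb1, lamin B1, was not called (log2 0.15 ± 0.08). T618I raised 33 of the 45 in empty-vector cells and lowered 4, and the interaction was called higher for 37 and lower for none. Itgam was not called in empty-vector cells (−0.26 ± 0.12), and its effects differed by 1.99 ± 0.17. The summed level of the list rose from 5373 to 6292 CPM without T618I to 24710 to 35633 CPM with it. Csf3r, whose own level ran in the same order over the T618I libraries, is on this list, and the part of that difference between libraries in these results was not tested. Without library A of Asxl1-MT2/T618I the list's counts stayed within 1.5 times of those given.

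Transcription factors of the granulocyte lineage rose in 11 of 18 cases and fell in 4 (Gfi1, Per3, Cebpa and Cebpg), with a median of 0.62. Rara, a retinoic acid receptor, was at 1.09, 0.691 and 0.499 CPM without T618I and at 103, 89.7 and 60.7 CPM with it (log2 6.77 ± 0.26, adjusted p = 1.97e-12). Mxd1, an antagonist of Myc, rose from 46.5 ± 0.933 to 438 ± 82.1 CPM, Fosl2 from 13.8 ± 0.569 to 122 ± 30.6 CPM and Cebpb, the C/EBP factor of emergency granulopoiesis, from 129 ± 25.6 to 332 ± 36.9 CPM. Gfi1, a repressor needed for neutrophil production, fell from 440 ± 66 to 187 ± 19.4 CPM, and Cebpa fell slightly (log2 −0.28 ± 0.10), a call lost without any 1 of 3 libraries (adjusted p = 0.051 to 0.117). Cebpe, the factor that drives secondary granule genes, was at 322, 268 and 224 CPM without T618I and at 246, 280 and 275 CPM with it. These groups overlapped and Cebpe was not called (log2 −0.02 ± 0.11, adjusted p = 0.88). In empty-vector cells Cebpe fell with T618I, from 239 ± 13.7 to 131 ± 11.3 CPM, and the difference between the effects was called (0.84 ± 0.16, adjusted p = 0.00105). The Cebpg call was lost without library B or library C of either group compared (adjusted p = 0.0553 to 0.137). The count of members that fell dropped from 4 to 2 without library B of Asxl1-MT2/Empty or library C of Asxl1-MT2/T618I.

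The genes of the oxidative burst and of pathogen recognition rose as well. Of 22 tested genes of the NADPH oxidase and phagocyte receptors, 19 rose and 1 fell (Ticam2, an adaptor), with a median of 1.11, and the interaction was called higher for 15 and lower for none. Cybb, the catalytic chain of the oxidase, was at 35.6, 24.7 and 25.1 CPM without T618I and at 390, 338 and 362 CPM with it (log2 3.67 ± 0.14, adjusted p = 1.84e-12). Tlr2, a receptor for bacterial lipoproteins, rose from 11.9 ± 0.477 to 135 ± 19.1 CPM and Tlr13, a sensor of bacterial ribosomal RNA, from 0.165 ± 0.0578 to 78.1 ± 31.2 CPM. Hvcn1, a proton channel, was not called (−0.01 ± 0.09). Enzymes and receptors of lipid mediators rose in 12 of 15 cases and fell in 1. Alox5, which starts leukotriene synthesis, rose from 20.1 ± 2.95 to 76.1 ± 14.5 CPM and Alox15 from 0.364 ± 0.0586 to 11.7 ± 2.72 CPM. The member that fell was Lta4h, leukotriene A4 hydrolase, from 1126 ± 35.1 to 730 ± 48.2 CPM. Lysosomal genes rose in 21 of 30 cases and fell in 2 (Gaa and Npc2), with a median of 0.46, and the interaction was called higher for 18. Ctsd, cathepsin D, rose from 912 ± 38.9 to 1910 ± 256 CPM, Ctsl from 8.26 ± 1.42 to 60.7 ± 14.9 CPM and Tfe3, a lysosomal transcription factor, from 33.2 ± 2.25 to 113 ± 20.2 CPM. Cd63 was not called (−0.08 ± 0.09).

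Markers of other cell types were examined beside the neutrophil genes. Of 19 tested monocyte and macrophage genes, 14 rose and none fell, with a median of 0.70, and their summed level went from 1331 to 1546 CPM to 2394 to 3245 CPM. Lgals3, galectin 3, rose from 3.57 ± 1.34 to 206 ± 49.4 CPM, and Csf1r, the receptor for macrophage colony-stimulating factor, from 11.5 ± 1.64 to 87.4 ± 20.9 CPM (log2 2.93 ± 0.19). Ctss rose from 0.265 ± 0.153 to 34.6 ± 12.2 CPM. Several defining genes of monocytes and macrophages were low or at 0: Irf8 was at 5.93 ± 3.78 and 5.36 ± 1.29 CPM and was not called, Klf4 had 2 and 19 counts, Ly86 2 and 3, and C1qa none. The interaction was called higher for 12 of the 19, Irf8 among them, and lower for none. That of Ctss was lost without library C of Empty/Empty (adjusted p = 0.15). That of Irf8 was lost without library B of Asxl1-MT2/Empty or library A or library C of Empty/T618I (adjusted p = 0.0509 to 0.055). The part of monocytic cells in the rise of shared phagocyte genes was not tested.

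Mast cell, basophil and eosinophil genes rose strongly. Of 29 tested, 24 rose and 1, Kit, fell, with a median of 2.98 that was unchanged when the 4 members without a control count were set at their lower bounds. Mcpt8, a basophil protease, was at 78.2, 113 and 101 CPM without T618I and at 802, 711 and 789 CPM with it (log2 2.98 ± 0.18, adjusted p = 5.61e-10). Mcpt1, a mast cell protease, went from 0.0989, 0.296 and 1.4 CPM to 798, 718 and 891 CPM (log2 10.37 ± 0.43), and Mcpt2 from 0.696 ± 0.609 to 360 ± 38.9 CPM. Mcpt4 had no count without T618I and 898 with it, at least 316-fold higher, and Tpsab1, a tryptase, 0 and 189 counts, at least 66.5-fold higher. The receptor genes moved with the proteases. Ms4a2, the beta chain of the high-affinity IgE receptor, rose from 12.8 ± 2.48 to 136 ± 20.6 CPM, Il1rl1, the interleukin-33 receptor, from 2.91 ± 1 to 152 ± 19.5 CPM and Gata2, a factor of this lineage and of progenitors, from 40.8 ± 1.5 to 224 ± 4.52 CPM. The granule protein Prg2 of eosinophils rose from 29.1 ± 4.97 to 120 ± 68.8 CPM, with library C at 195 CPM and library A at 59.1 CPM. Rab44 was not called (−0.17 ± 0.14), although it was without library C of Asxl1-MT2/Empty (adjusted p = 0.00865). Reads of the Mcpt genes may be shared among near-identical copies.

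In empty-vector cells most of these genes rose as well. T618I raised 20 of the 29 genes and lowered 2 there, with a median of 3.25, and the interaction was called for 3, all higher (Prg2, Epx and Siglecf, genes of eosinophils; that of Epx was lost in most settings that leave out a library). It was called higher for 5 without library A of Asxl1-MT2/T618I and for 6 without library C of Empty/T618I, and lower for 3 without library B of Empty/T618I. For Mcpt8 the effects were 2.98 and 3.56 ± 0.19 and their difference −0.59 ± 0.24 (adjusted p = 0.0991), which was called without library B of Empty/T618I (adjusted p = 0.00543), without library A of Asxl1-MT2/Empty (0.0476), without a low-count filter (0.0193) and by library totals alone (0.0456). For Ms4a2 the difference was −0.19 ± 0.31, not called either. The interactions of Mcpt1 and Mcpt2 were −2.45 ± 1.53 and −1.71 ± 1.41, not called, and were called when library B of Empty/T618I was left out (adjusted p = 0.0463 and 0.0405). Summed levels of the list were 1760 to 1967 CPM in Asxl1-MT2/Empty, 5219 to 5722 CPM in Asxl1-MT2/T618I, 2381 to 2718 CPM in Empty/Empty and 5002 to 8775 CPM in Empty/T618I. Ear1, Ear2 and Ear6 had 0 counts without T618I and at most 2 with it, and Epx overlapped between the groups. The rise of Epx was not called by DESeq2 (log2 1.26, adjusted p = 0.101), by limma voom (0.169) or in several settings that leave out a library. Without library C of Asxl1-MT2/T618I its log2 fold change was 0.38. The Epx interaction was not called by DESeq2 (adjusted p = 0.102) or limma voom (0.0652) either.

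The 250 bases before the Ms4a2 start site (chr19:11623720-11623969, minus strand, GRCm38.p6) are shown as the promoter of a mast cell receptor that rose. Capitals mark AGATAA, which GATA factors bind, or TTATCT, the same motif on the other strand, with first bases at −224, −37 and −11.
Ms4a2: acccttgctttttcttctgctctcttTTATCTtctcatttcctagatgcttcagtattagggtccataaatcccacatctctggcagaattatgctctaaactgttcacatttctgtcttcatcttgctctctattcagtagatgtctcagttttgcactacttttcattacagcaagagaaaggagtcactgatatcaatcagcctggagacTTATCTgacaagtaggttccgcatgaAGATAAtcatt
Of 30 windows found for this list 9 held such a match (30.0%), against 9.99% of all windows and 6.04% of those of tested genes. The Ms4a2 window held 3 matches, the most of this list, and the windows of Mcpt8, Mcpt1, Mcpt4 and Gata2 held none. The secondary granule list held a match in 7 of 21.

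**Figure D3:**
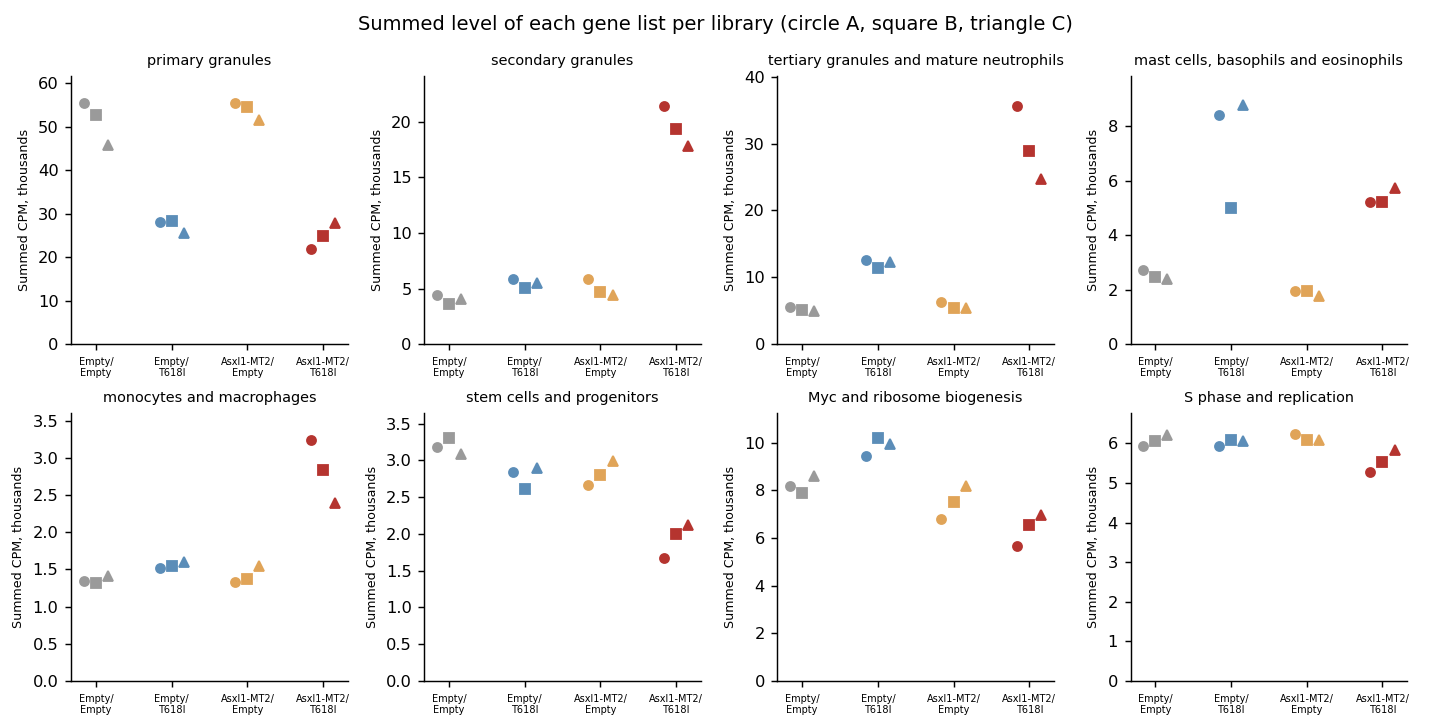
Summed level of 8 gene lists, in CPM (axis in units of 1000), in each of the 12 libraries (shape by library letter). Secondary and tertiary granule sums are highest in the 3 Asxl1-MT2/T618I libraries, in the order A, B, C, and mast cell sums are high in both T618I groups.

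Stem and progenitor genes were divided, with 6 of 25 tested higher and 10 lower and a median of −0.24. Kit, the stem cell factor receptor, was at 343, 341 and 362 CPM without T618I and at 75.9, 89.8 and 106 CPM with it (log2 −1.95 ± 0.10, adjusted p = 9.62e-11). Myb, a factor of immature blood cells, fell from 1003 ± 76.9 to 447 ± 73.9 CPM. Both fell in empty-vector cells as well, and neither difference was called (−0.31 ± 0.14 and −0.33 ± 0.15), although both were without library C of Asxl1-MT2/T618I (adjusted p = 0.024 and 0.0417). Against that direction, Ly6a, the stem cell antigen Sca-1, rose from 0.692 ± 0.55 to 33.5 ± 0.789 CPM. Cd34 was not called (0.11 ± 0.15) and Hlf was not called (−0.05 ± 0.10). Megakaryocyte and erythroid genes rose in 8 of 15 tested cases and fell in 4 (Itgb3, Gp9, Car2 and Tfrc). Those that rose included regulators that mast cells also use, such as Gata1 (1.59 ± 0.721 to 24.3 ± 2.09 CPM) and Gfi1b (0.693 ± 0.354 to 12.9 ± 1.56 CPM), while the globin genes Hba-a1 and Hbb-bs had no counts.

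Lymphoid genes were called higher in 4 (Il7r, Notch1, Il2ra and Il2rg) and lower in 4 (Igll1, Cd79b, Ebf1 and Nkg7) of 11 tested cases. Il7r, the interleukin-7 receptor, had 2 counts without T618I and 1042 with it, a ratio of 550 (95% counting interval 152 to 4550), and Notch1 rose from 83 ± 6.56 to 348 ± 68.6 CPM. The B cell genes fell, Igll1 of the surrogate light chain from 13.7 ± 2.33 to 0.554 ± 0.49 CPM and Cd79b from 8.65 ± 1.62 to 1.7 ± 0.581 CPM. Pax5 and Cd3e had no counts. Of 13 dendritic cell and antigen presentation genes 4 rose (H2-DMb1, Tcf4, Cd86 and Tapbp) and 6 fell. The call of H2-DMb1 (adjusted p = 0.044) was lost by library totals alone and without library B or library C of either group compared (adjusted p = 0.065 to 0.192). H2-Ab1, a class II chain, fell from 6.21 ± 0.464 to 0.208 ± 0.18 CPM, and the class I genes B2m and H2-K1 fell from 1016 ± 46.7 to 700 ± 67.5 CPM and from 607 ± 49 to 450 ± 12.9 CPM. Another class I gene, H2-D1, was at 277 ± 22.3 and 311 ± 34.7 CPM and was not called (log2 0.17 ± 0.13), with a called difference between the backgrounds of 1.12 ± 0.18. Cd86, a costimulatory ligand, had 1 and 42 counts, a ratio of 44.3 (95% counting interval 7.53 to 1790). Siglech of plasmacytoid dendritic cells and Ccr7 had none. Of 5 stromal genes tested, Vim and Col1a1 rose and Pdgfrb and Pecam1 fell. Vim, which blood cells also express, went from 175 ± 10.5 to 663 ± 78.6 CPM, while Col1a1 had only 6 and 32 counts, and its call was lost without library A or library B of Asxl1-MT2/Empty (adjusted p = 0.0711 and 0.0572).

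Median changes of replication and mitosis genes were small, and those of cyclins and CDK inhibitors larger. Of 30 S phase genes 14 fell and 4 rose (Rrm2, Ccne1, Ccne2 and Slbp), with a median of −0.18 (19 and 2 by library totals alone). Mcm6 and Mcm7 of the replicative helicase fell from 533 ± 15 to 389 ± 35.8 CPM and from 507 ± 16.2 to 372 ± 28.2 CPM, whereas Ccne1, cyclin E1, rose from 35.3 ± 1.73 to 70.7 ± 3.36 CPM. Mcm5 was not called (−0.05 ± 0.07). The count of S phase genes that fell depended on single libraries: it was 9 without library B of Asxl1-MT2/Empty, 7 without library A or library B of Asxl1-MT2/T618I, and 9 without library B of Empty/Empty. The count that rose was 2 without library B of Asxl1-MT2/Empty or library B or library C of Asxl1-MT2/T618I. Genes of G2 and mitosis rose in 12 of 29 cases and none fell, with a median of 0.14, but scaled by library totals alone 7 rose and 3 fell. Kif23, a kinesin of cytokinesis, rose from 90.2 ± 4.55 to 122 ± 6.39 CPM, Top2a was not called (0.01 ± 0.11), and the call of Mki67 (0.37 ± 0.14) was lost without any 1 of 5 libraries (adjusted p = 0.0576 to 0.12). Cyclins, CDK inhibitors and p53 targets rose in 20 of 27 cases and fell in 5 (Ccnd1, Ccnd2, Cdk4, Cdk6 and Sesn1), with a median of 1.05. Cdkn1a, the inhibitor p21, was at 32.4, 30.5 and 33 CPM without T618I and at 126, 126 and 113 CPM with it (log2 1.93 ± 0.11, adjusted p = 2.33e-10). The D cyclins moved apart: Ccnd3 rose from 310 ± 19 to 806 ± 83.4 CPM, and Ccnd2 fell from 174 ± 25.5 to 44 ± 8.92 CPM. The Cdk6 call was lost without any 1 of 4 libraries. Cdkn1a and Ccnd2 moved in the same directions without Asxl1-MT2, and the differences were not called (0.19 ± 0.16 and −0.18 ± 0.19).

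Myc and many genes of ribosome production fell with T618I in Asxl1-MT2 cells. Of 30, 16 fell and 1 rose (Max, a call lost without any 1 of 5 libraries), with a median of −0.27. In empty-vector cells 12 rose and 1 fell, with a median of 0.24, and the interaction was called lower for 20 and higher for none. Myc was at 299, 338 and 342 CPM without T618I and at 166, 206 and 208 CPM with it (log2 −0.76 ± 0.11, adjusted p = 3.41e-05), whereas in empty-vector cells it was not called (−0.12 ± 0.11, from 383 ± 37.4 to 351 ± 52 CPM). The difference was −0.63 ± 0.16 (adjusted p = 0.0104). Gnl3, nucleostemin, fell from 106 ± 9.72 to 77.3 ± 6.52 CPM (difference −0.67 ± 0.13), and Dkc1, which modifies ribosomal RNA, from 176 ± 13.2 to 127 ± 14.8 CPM (difference −0.61 ± 0.13). Ncl, nucleolin, was not called (−0.12 ± 0.12). Without library A of Asxl1-MT2/T618I, the lowest of the 6 in this list's sum, 8 members fell and the interaction was called lower for 13. Scaled by library totals alone, 22 fell and none rose, and the interaction was called lower for 27.

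Of 29 genes of the ATF4 and unfolded protein responses 9 rose and 12 fell. The fall held chaperones of the endoplasmic reticulum, such as Hspa5 (2026 ± 222 to 1132 ± 99.3 CPM) and Pdia4 (449 ± 27 to 236 ± 27.5 CPM), and the rise amino acid and stress genes, such as Slc7a11, the cystine importer (31.2 ± 6.15 to 171 ± 33.2 CPM), Slc7a5, a neutral amino acid importer (268 ± 21.5 to 689 ± 7.85 CPM), and Sesn2 (12.5 ± 1.41 to 40.2 ± 6.89 CPM). The interaction was called lower for 10, a count that dropped to between 4 and 6 without any 1 of 5 libraries. Heat shock genes were called lower in 2 of 13 cases (Hspa1a and Dnaja1) and higher in 1 (Dnajb1), but lower in 7 and higher in none when scaled by library totals alone. Both counts dropped by at least 1 without several single libraries. Cholesterol synthesis genes fell in 8 of 25 cases and rose in 3, among them Msmo1 and Srebf2. By library totals alone 12 fell and 1 rose, and 1 rose without library A of Asxl1-MT2/Empty. The Msmo1 call was also lost without library B of Asxl1-MT2/Empty or any library of Asxl1-MT2/T618I (adjusted p = 0.0503 to 0.0637). Dhcr7, which makes cholesterol in the last step, fell from 136 ± 4.1 to 72.6 ± 11.6 CPM, while Fdps was not called (−0.23 ± 0.13), although it was in the fit of the 6 libraries alone (adjusted p = 0.0215), by library totals alone (0.0389) and without library C of Empty/Empty (0.0394). Glycolysis genes rose in 11 of 25 cases and fell in 5 (Hk3, Pfkm, Pdk1, Egln3 and Vegfa; 9 and 6 by library totals alone). The glucose importers Slc2a3 and Slc2a1 rose from 14.1 ± 2.5 to 167 ± 26.8 CPM and from 67.2 ± 8.91 to 198 ± 35.8 CPM, and Slc16a3, a lactate exporter, from 81.1 ± 3.42 to 191 ± 22.4 CPM. The Pfkm call was lost without any 1 of 7 libraries. Gpi1 was not called (−0.14 ± 0.08), although it was by library totals alone (adjusted p = 0.0154).

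Interferon response genes rose in 18 of 24 tested cases and none fell, with a median of 1.42, and the interaction was called higher for 11 and lower for none. Oas2, a sensor of double-stranded RNA, was at 1.19, 0.592 and 0.599 CPM without T618I and at 34.8, 26.2 and 16.8 CPM with it (log2 5.01 ± 0.33, adjusted p = 1.46e-09). Its interaction (2.69 ± 0.64) was lost without library C of Empty/Empty (adjusted p = 0.0607). Gbp2 rose from 0.496 ± 0.173 to 10.9 ± 1.81 CPM. Ifitm1 rose from 281 ± 40.2 to 2667 ± 430 CPM, and by nearly the same amount in empty-vector cells (difference −0.05 ± 0.17). Bst2 was not called (−0.02 ± 0.12). Oas and Ifitm genes have near-identical relatives.

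Genes of the chromatin machinery that ASXL1 works with moved in both directions. Of 40 Polycomb, BAP1 and ASXL genes 9 rose and 9 fell, Asxl1 with its vector-borne RNA among the latter, beside 26.9% and 22.8% over all genes, with a median of −0.02 (6 rose and 12 fell by library totals alone). Bap1 was at 89.8, 91.9 and 90.5 CPM without T618I and at 89, 88.9 and 85.4 CPM with it and was not called (−0.05 ± 0.07). Asxl2 was not called either (0.10 ± 0.10). Phf1, a Polycomb accessory protein, rose from 11.4 ± 2.63 to 37.2 ± 9.24 CPM, Pcgf1 from 5.38 ± 1.04 to 9.07 ± 1.29 CPM, and Pcgf5 and Jarid2 fell from 53.9 ± 5.7 to 31.3 ± 1.41 CPM and from 116 ± 9.41 to 71 ± 3.95 CPM. Of 10 tested Hox genes and partners, 6 rose and 1, Hoxb8, fell (4 and 2 by library totals alone). Hoxa9 was at 0.395, 0.0987 and 0.0998 CPM without T618I and at 1.59, 4.18 and 7.44 CPM with it, spread more than 4-fold among the T618I libraries with C highest. Its effects differed between the backgrounds by 5.00 ± 0.88 (adjusted p = 0.00068). Hoxb4 rose from 6.64 ± 1.26 to 14.8 ± 2.18 CPM.

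Beyond these groups, several of the largest rises were in genes of surface and secreted proteins. Spint1, a protease inhibitor, Cd38, an ectoenzyme that consumes NAD, and Kcnn3, a potassium channel, had no count without T618I and were at least 503-, 441- and 318-fold higher with it. Marcks, a kinase substrate of the cytoskeleton, and Cd55, which protects cells from complement, also started from 0 counts and were at least 126- and 120-fold higher. Nos2, inducible nitric oxide synthase, rose from 0.132 ± 0.115 to 188 ± 53.4 CPM and Saa3, an acute-phase protein, from 0.166 ± 0.152 to 294 ± 75.2 CPM. Lipg, endothelial lipase, was at 3.16, 1.68 and 2.3 CPM without T618I and at 292, 211 and 224 CPM with it (log2 6.66 ± 0.20), and Serpine2, a protease inhibitor, went from 1.39 ± 0.353 to 107 ± 17.1 CPM. Slfn1 had 2 and 2136 counts, a ratio of 1130 (95% counting interval 312 to 9310). Actb, cytoplasmic actin, rose from 3817 ± 365 to 6925 ± 351 CPM, one of the 5 largest gains in CPM among the genes ranked.

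The largest falls included the basement membrane collagens Col4a5 (6.51 ± 0.562 to 0.313 ± 0.103 CPM) and Col4a6 (5.62 ± 0.783 to 0.211 ± 0.182 CPM). Serpinf1, a secreted serpin, was at 31.7, 34.6 and 33.8 CPM without T618I and at 3.82, 2.72 and 4.75 CPM with it (log2 −3.14 ± 0.15, adjusted p = 3.19e-11). Matk, a kinase that restrains Src family kinases, fell from 25 ± 4.86 to 2.69 ± 0.614 CPM. Ptgds, a prostaglandin synthase, fell from 9.92 ± 3.52 to 0.794 ± 1.1 CPM, Kcnip3 from 8.65 ± 1.93 to 1.01 ± 0.335 CPM, Fbp1 of gluconeogenesis from 5.72 ± 1.28 to 0.729 ± 0.356 CPM, and Myo18b and Dlg2 from 17.7 ± 2.3 to 2.33 ± 0.873 CPM and from 15.1 ± 3.6 to 2.06 ± 0.373 CPM. Pdcd4, an inhibitor of translation, fell from 92.8 ± 4.86 to 29 ± 1.76 CPM, Tifab, an inhibitor of innate immune signalling, from 176 ± 6.38 to 54.7 ± 5.31 CPM, and Nav2 from 63 ± 1.6 to 16.1 ± 2.04 CPM. Thbs1, thrombospondin, fell by 2069 CPM on average (3100 ± 256 to 1031 ± 146 CPM).

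Over all genes, the T618I effects with and without Asxl1-MT2 overlapped in part. Of the 5761 genes called with Asxl1-MT2, 2611 were called in the same direction without it, which is 45.3% of the former and 67.3% of the 3878 called in empty-vector cells (33.5% of genes tested). Another 3004 were not called in empty-vector cells, but the difference itself was called for only 1066 of these. Opposite directions were called for 146 genes, and in all 146 the difference was called too. The difference was called for 2273 genes in all (19.6%), higher with Asxl1-MT2 for 1635 and lower for 638. Among genes that rose with Asxl1-MT2 and had a called difference, the difference was higher for 1264 and lower for 38, and among those that fell it was lower for 412 and higher for 104. Scaled by library totals alone the difference was called higher for 1312 and lower for 1393. The lower count of 638 fell to 422, 344, 422, 364 and 416 without library B of Asxl1-MT2/Empty, library A or library B of Asxl1-MT2/T618I, library B of Empty/Empty and library B of Empty/T618I.

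**Figure D4:**
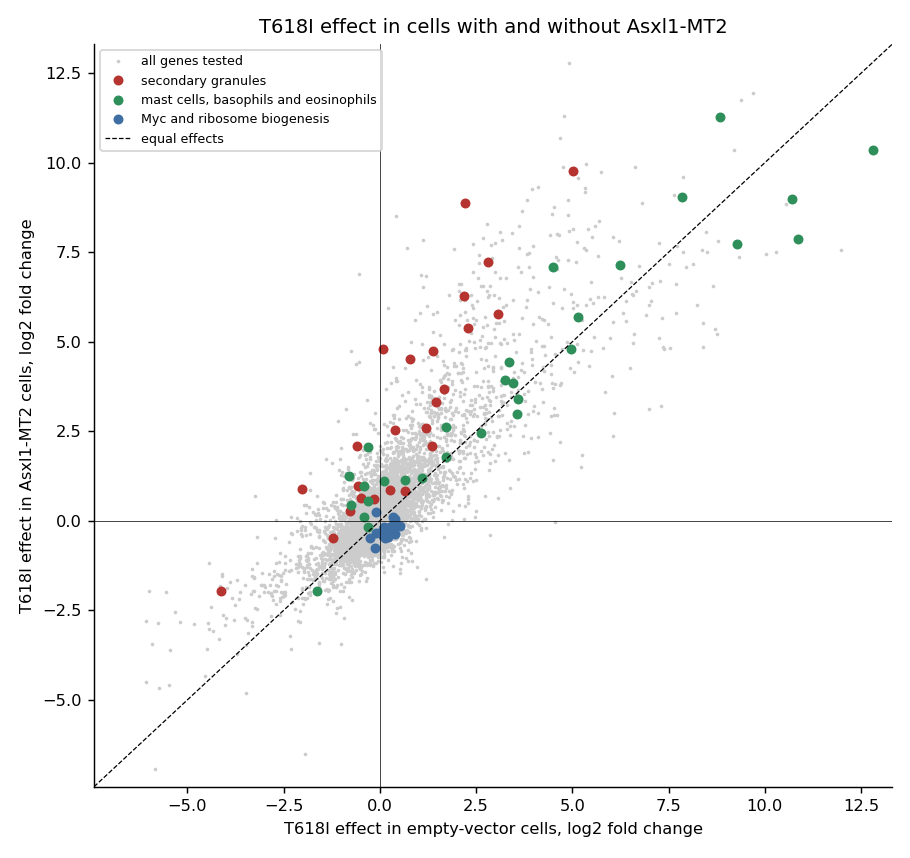
T618I effect of each tested gene in Asxl1-MT2 cells (vertical) against that in empty-vector cells (horizontal), as log2 fold changes; the dashed line marks equal effects, and genes with no count in a group have no fixed place. Secondary granule genes (red) lie mostly above the line, mast cell genes (green) near it, and Myc and ribosome genes (blue) mostly below it.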

How the data were processed

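RNA of 12 HoxB8 cell libraries, 3 per group, was sequenced. The authors deposited 1 table of raw gene counts, whole numbers per gene and library. Trimmomatic, STAR, DESeq2 and the build mm10 are named in the submitters' processing notes, and the counter, annotation and strand setting are not given in the sources used here. Columns are lettered A to C and the titles numbered, with nothing linking them, so a column was assigned to its group only. Library totals were 9341984 to 10252291 counts. The members and gene lists were chosen with earlier results of these data known.

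The counts were fitted with edgeR 4.0.16 in R 4.3.3 (filterByExpr by group, TMM factors, 1 mean per group over all 12 libraries, quasi-likelihood test, Benjamini-Hochberg adjustment), since all 4 groups then share 1 estimate of the spread. The contrasts were T618I with Asxl1-MT2, T618I without it, and their difference. Of 24411 genes, 7965 had no counts and 11578 were tested. The standard error is the log2 fold change divided by the square root of F. A gene with no control count is set against a floor of 3 counts over the group; with 1 to 3 counts an exact 95% interval of the ratio is given. Floors and intervals cover counting error only, and fitted fold changes of such genes are no bounds. Genes with near-identical copies, and overlapping or antisense genes, may share reads.

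Named genes were the vector genes and Hoxb8; the 12 largest rises and falls among called genes of at least 5 CPM without overlap; the 5 smallest p-values in each direction; up to 4 called members of each list by fold change and its most abundant uncalled member; the 6 largest differences between backgrounds in each direction; and the 5 largest CPM differences. Other genes named, such as Ltf, Ms4a2, Camp, Cish, Itgam, Cxcr2, Cdkn1a, Ctsd, Bap1, Mcpt8 and the members of counts of 5 or fewer, were named after their values were seen. Their calls were followed over the same alternatives. Some genes that the rule names are not reported here.

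On simulated data for this contrast (11428 genes), 67, 67 and 66 genes of at least 5 CPM were changed 1.5-, 2- and 4-fold, up or down. Of these changes 73.1%, 98.5% and 100% were recovered. All other genes were left unchanged, unlike in the data, where far more genes were called. The rates do not cover genes with few counts. Alternatives were other scalings, filters and tools (DESeq2 1.42.0, limma 3.58.1 with voom), the column letter as a replicate block, the 6 libraries alone, and each library left out. Same-letter libraries were not treated as paired, since nothing in the labels links them. Promoter windows came from RefSeq (GRCm38.p6).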

Additional observations from a re-analysis of the deposited data

Results flagged for a closer look

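The T618I effect differed between Asxl1-MT2 and empty-vector cells for 2273 genes by edgeR's test of the difference. The genes below are among those with the largest called differences in each direction among genes also called in Asxl1-MT2 cells. They were selected for size, so the differences are given as values. Fold changes fitted from counts near 0 are no bounds.

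The effect was higher with Asxl1-MT2 for Fpr1 by 7.88 (log2), Ceacam10 by 6.67, Saa3 by 6.0, Prr33 by 5.63 and Fpr2 by 5.51. All of them had few or no counts in Asxl1-MT2/Empty. The Prr33 difference (adjusted p = 0.0445) was lost in 8 of the settings that leave out a library.

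The effect was lower with Asxl1-MT2 for Asb13 (−1.97), Tmem9 (−1.93), Lgr4 (−1.88), Hs3st3b1 (−1.87), Dsel (−1.65) and Rhoj (−1.60). Asb13 and Hs3st3b1 fell with Asxl1-MT2 and rose without it, and Lgr4 fell with it and was not called without it. Asb13 was at 5.12 and 2.33 CPM without and with T618I in Asxl1-MT2 cells and at 2.39 and 4.28 CPM in empty-vector cells. Lgr4, a receptor of R-spondins, was at 5.78 and 2.27 CPM against 4.89 and 7.11 CPM. Hs3st3b1, a heparan sulfate sulfotransferase, was at 4.73 and 2.16 CPM against 3.29 and 5.52 CPM. Tmem9, Dsel and Rhoj rose in both backgrounds, Rhoj from 2.74 to 13.8 CPM with Asxl1-MT2 and from 2.89 to 44.1 CPM without it. The Rhoj difference was lost in 6 of the settings that leave out a library.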

How the results depend on the processing

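Counts of genes raised and lowered by T618I in Asxl1-MT2 cells stayed within 1.5 times of 3118 and 2643 under every alternative run, including DESeq2 (3063 and 2474), voom (3110 and 2594) and the 6 libraries alone (3051 and 2549). Leaving out each library in turn gave 4752 to 5963 called genes, 2740 to 3319 higher and 2012 to 2672 lower, and 1636 to 1889 with a change of at least 2-fold. For the difference between backgrounds the ranges were 1646 to 2640 in all, 1282 to 1731 higher and 344 to 909 lower. Scaling by library totals alone gave 1393 lower differences in place of 638; the cause was not tested. For the T618I effect in Asxl1-MT2 cells, 3598 values of the 181 named genes were followed under alternatives. Of these 3547 kept their side of the threshold, 32 lost the call and 19 gained one. Among genes called in the main fit 0 values reversed direction, and direction was not followed for uncalled genes. Of 1200 list counts of that effect, 74 moved by over 1.5 times. These tallies leave out the difference between backgrounds, whose calls and list counts changed more often. The called differences of Tlr13, Slc2a1 and Ncl, for instance, were each lost in several settings that leave out a library. With the column letter as a replicate block, 3256 genes were higher and 2858 lower, and the difference was called for 1898 and 953. In 2 of 3 same-letter pairs of the comparison the deviations correlated at over 0.1 (0.0961 to 0.173 over 9710 genes). Over all 4 groups, which the difference between backgrounds uses, 9 of 18 same-letter pairs did so (−0.11 to 0.383). These correlations do not pair the samples. Depth limits the genes with few control counts, whose ratios have wide intervals.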
